A study of Mus musculus with 6 samples.

Results

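The proteasome genes described here are the mouse genes whose symbols consist of Psm, a letter from a to g and a digit, with pseudogenes left out. This name rule found 50 genes among the 34745 in the deposited expression table. By their known places in the complex they comprise 16 genes of the constitutive core (Psma and Psmb), 3 immunoproteasome genes (Psmb8, Psmb9 and Psmb10), 20 genes of the regulatory cap (Psmc and Psmd) and 10 activator, inhibitor and core chaperone genes (Psme, Psmf and Psmg). The remaining one, Psmc3ip, matches by name alone: it encodes a meiotic recombination factor and no subunit.

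The proteasome is the protease that degrades proteins tagged with chains of ubiquitin. Its cap recognises and unfolds a tagged protein and feeds it into a barrel of stacked rings, where outer alpha subunits form the gate and inner beta subunits Psmb5, Psmb6 and Psmb7 do the cutting. Interferon and immune cells bring in the alternative catalytic subunits Psmb8, Psmb9 and Psmb10 and the activator made of Psme1 and Psme2, which change the peptides offered to antigen presentation, while mouse germ cells entering meiosis carry the alpha subunit Psma8. When proteasome activity drops, the transcription factor Nfe2l1 (NRF1) escapes degradation and drives the genes of core and cap together.

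The cells were spermatogonial stem cells, the stem cells of the male germ line, cultured to passages 15 to 20 from DBA/2J X c57BL/6J mice of postnatal day 6, and no genetic change is named for them. One group of 3 samples received bisphenol A (BPA), a plastics monomer with weak estrogen activity, at 100 µM for about 4 days, and the other group of 3 samples was untreated, with no vehicle named. No source says that the samples of a group were separate cultures, so every p-value measures only the spread between these samples.

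The 6 libraries held 13453280 to 22286517 counts, spread over 13638 to 16013 genes. All levels are CPM (counts scaled to a common library size) unless a sentence says that they are per length. Germ cell identity was visible in all libraries: the 12 spermatogonial markers summed to 1824 to 2345 CPM with BPA and 2226 to 2263 CPM in untreated cells, with Sall4 higher and Id4, Uchl1 and Dnd1 lower in edgeR's quasi-likelihood test. Of these 4 calls only that of Uchl1 held without each library in turn (edgeR adjusted p up to 0.0414): Sall4 missed the threshold without BPA replicate 1 or any untreated replicate (up to 0.163), and Id4 and Dnd1 missed it in every fit on 5 libraries but that without BPA replicate 2 (up to 0.151 and 0.144), Id4 also with library size scaling (0.0574). The 6 Sertoli cell markers summed to 118.5 to 154 CPM with BPA, against 44.0 to 57.0 CPM untreated, with Sox9 (not without untreated replicate 1, edgeR adjusted p = 0.0594) and Clu higher among the 4 tested, Amh at 8 counts or fewer in every library and Cldn11 at 0 in the 3 untreated ones. Among 7 fibroblast markers none of the 6 tested passed, and their sums were 139 to 242 CPM with BPA and 234 to 284 CPM untreated. Of 8 immune cell markers 2 were tested and none passed, with sums of 32.6 to 43.7 CPM with BPA and 56.5 to 61.0 CPM untreated, and the pan-leukocyte gene Ptprc had 1 count in all 6 libraries together. What part these shifts have in the proteasome values was not tested. BPA replicate 2 stood apart from the other BPA libraries in genes of low GC content, and results that rest on it are given with and without it.

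With BPA, 12 of the 47 tested proteasome genes fell and none rose (edgeR's quasi-likelihood test, Benjamini-Hochberg adjusted p under 0.05 over all tested genes). Over all 13287 tested genes 6.28% were lower and 4.37% were higher by the same rule, against 25.5% lower among the tested proteasome genes. Of those 12 genes, 8 encode constitutive core subunits, and the others are the immunoproteasome gene Psmb10, the cap genes Psmc5 and Psmd13 and the activator gene Psme2. Psmb4 fell by 28.9%, the least of the 12, and Psmb10 fell by 67.8%, the most. Psmb8, Psmb11 and Psme2b had too few counts to be tested. Psmb11, the core beta subunit of the thymus, had 1 count in the 6 libraries together.

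Among the 47 tested genes, 36 had a log2 fold change below 0, and their median was -0.26 against 0.10 over all tested genes. All genes of the module together held 9765, 9862 and 9738 CPM in the BPA libraries and 12830, 12880 and 13070 CPM in the untreated libraries. The sum with BPA was 0.757 of the untreated one, and the groups did not overlap. Gene by gene, the BPA values lay below every untreated value for 21 tested members, a pattern found in 15.7% of all tested genes. They lay above for 1, the activator gene Psme3, a pattern found in 15.6% of all tested genes. Because these are bulk samples, fewer cells of a type and less of a transcript per cell cannot be told apart.

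Summed by class, core transcripts came to 3616, 3359 and 3393 CPM with BPA, against 5254, 5143 and 5169 CPM untreated, a ratio of 0.666. Cap transcripts came to 5115, 5358 and 5234 CPM with BPA, against 6120, 6331 and 6425 CPM untreated, a ratio of 0.832. Activator and chaperone transcripts came to 973, 1074 and 1058 CPM with BPA, against 1269, 1228 and 1305 CPM untreated, a ratio of 0.817. None of the 3 classes overlapped between the groups, and the difference between classes was not tested. The median log2 fold change was -0.49 over 15 tested core genes, -0.06 over 20 cap genes and -0.18 over 9 tested activator and chaperone genes.

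Calls were more frequent among abundant genes, and many of the module's genes are abundant. Of 17 members with a mean over 256 CPM 8 were lower, as were 22.7% of all genes in that range. Between 64 and 256 CPM 4 of 17 members were lower, beside 14.1% of all genes there. Under 64 CPM none of 13 members was lower, beside 3.21% of all genes.

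**Figure D1:**
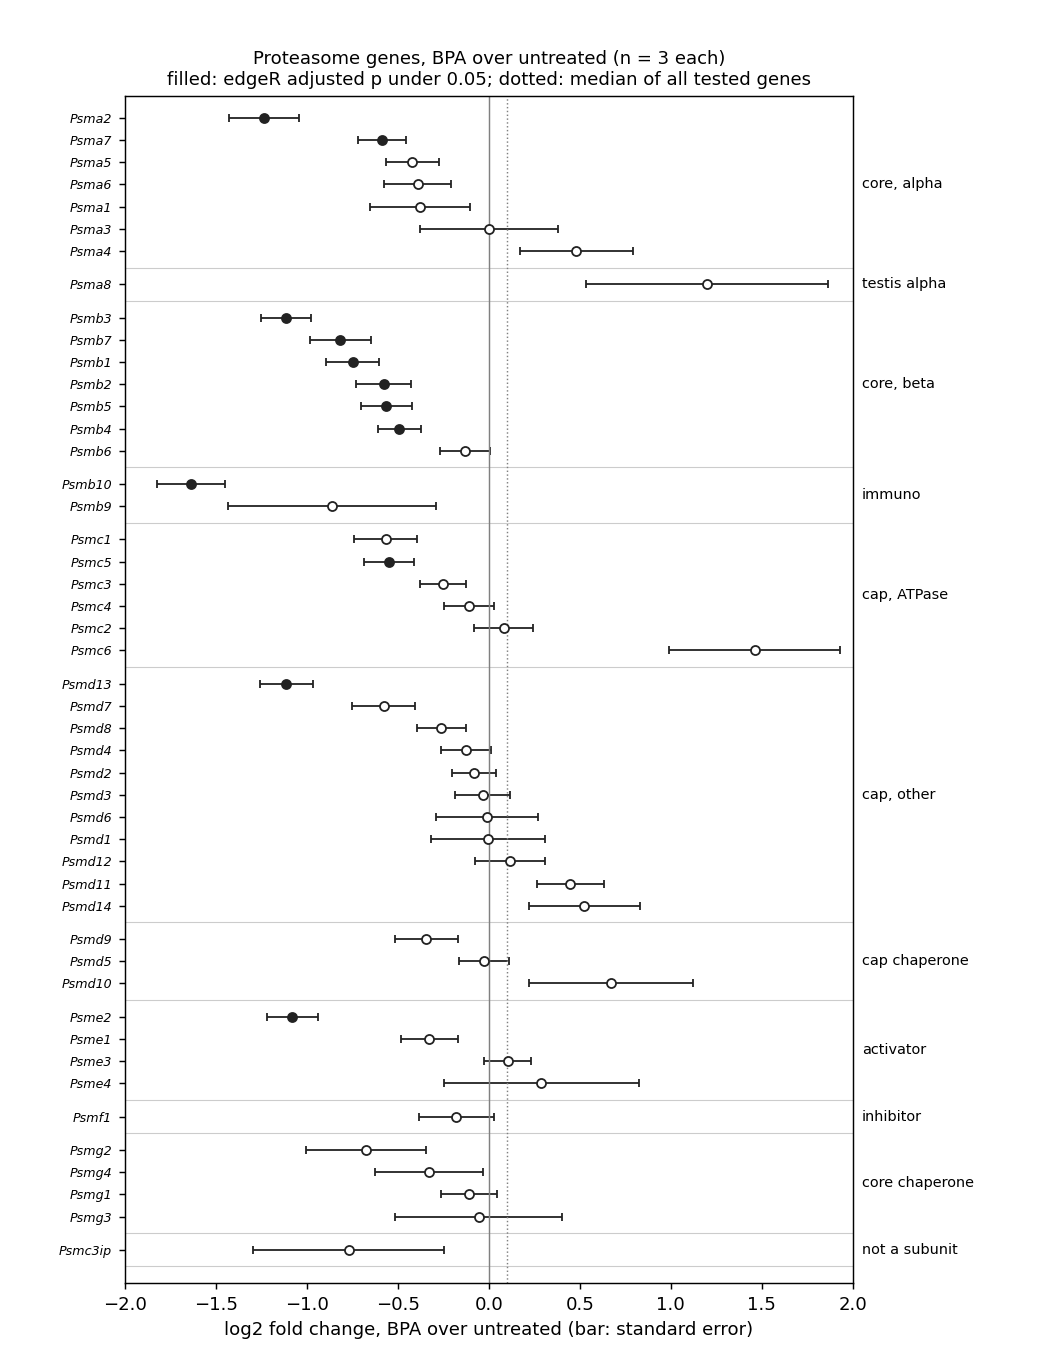
Log2 fold change of BPA over untreated for the 47 tested genes, grouped by role, with bars of 1 standard error from edgeR (n = 3 libraries a group). Filled points have an adjusted p under 0.05, and the dotted line is the median of all tested genes (0.10): all 12 filled points lie below 0, and 6 of them are among the 7 core beta genes.

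The outer rings of the core are built from alpha subunits, whose tails close the gate through which substrates enter. Of the 7 constitutive alpha genes, Psma2 and Psma7 fell, and the median log2 fold change of the 7 was -0.39. Psma2 (chr13:14613242-14625671, mm10) was at 138, 82.9 and 110.4 CPM with BPA and at 239, 281 and 260.5 CPM untreated. Its level was lower in every BPA library, with a log2 fold change of -1.24 (SE 0.19, edgeR adjusted p = 0.0019) that passed without each library in turn. Psma7 was at 441, 493 and 419 CPM with BPA and at 703, 676 and 655 CPM untreated, with no overlap between the groups. That is a log2 fold change of -0.59 (SE 0.13, edgeR adjusted p = 0.0151), which missed the threshold without BPA replicate 1 or 3 or untreated replicate 1 or 2 (edgeR adjusted p = 0.0749, 0.0614, 0.1 and 0.0858).

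The other 5 constitutive alpha genes did not pass. Psma5 and Psma6 were lower in every BPA library, with log2 fold changes of -0.42 and -0.39 (edgeR adjusted p = 0.0901 and 0.211), Psma5 passing without BPA replicate 2 (0.0144) and in DESeq2 (0.0264), and Psma6 with each library adjusted for GC content and gene length (0.0196). Psma1 had overlapping groups and a log2 fold change of -0.38 (edgeR adjusted p = 0.433). Psma3 and Psma4 differed between BPA libraries: Psma3 was at 133, 32.6 and 91.7 CPM with BPA, against 84.3, 67.7 and 105 CPM untreated, and Psma4 at 125, 43.0 and 104 CPM with BPA, against 59.8, 66.8 and 68.1 CPM untreated. In both, BPA replicate 2 was the lowest of the 6 libraries and BPA replicate 1 the highest. Psma4 had a log2 fold change of 0.48 (edgeR adjusted p = 0.365) and, without BPA replicate 2, of 0.82 (0.00293).

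Psma8, the alpha subunit of spermatocyte proteasomes that takes the place of Psma7, was scarce. It was at 7.27, 2.87 and 7.5 CPM with BPA and at 4.11, 1.49 and 2.03 CPM untreated, with BPA replicate 2 inside the untreated range. The log2 fold change was 1.20 (SE 0.67, edgeR adjusted p = 0.289). Per length its untreated level was 1.5 ± 0.82 CPM per kilobase, against 158 ± 5.54 CPM per kilobase for Psma7 (SD, n = 3).

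The beta rings carry the active sites, and here the decline reached 6 of 7 constitutive genes. Psmb3, a structural beta subunit (chr11:97703399-97713500), was at 312, 309 and 284 CPM with BPA and at 711, 668 and 585 CPM untreated. The 3 BPA libraries lay close together and below all untreated ones, and the log2 fold change of -1.12 (SE 0.14, edgeR adjusted p = 4.6e-04) passed without each library in turn. Psmb1, also structural, was at 457, 345 and 372 CPM with BPA and at 649, 624 and 698 CPM untreated. Per length that is 378 ± 56.5 CPM per kilobase with BPA and 634 ± 36.4 CPM per kilobase untreated (SD, n = 3), and its log2 fold change was -0.75 (SE 0.15, edgeR adjusted p = 0.00751). By the lengths behind the deposited FPKM, Psmb1 had the highest level per length of the module. That rank rests on lengths of 1036 bases for Psmb1 and 2659 for Psmb4. Their longest annotated transcripts have 1970 and 1183 bases.

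Psmb2 and Psmb4 complete the structural beta subunits. Psmb4, the most abundant member by CPM, was at 833, 779 and 793 CPM with BPA and at 1140, 1135 and 1108 CPM untreated, a log2 fold change of -0.49 (SE 0.12, edgeR adjusted p = 0.0206). Psmb2 was at 189, 248 and 239 CPM with BPA and at 319, 341 and 349 CPM untreated, a log2 fold change of -0.58 (SE 0.15, edgeR adjusted p = 0.0308). In both genes the highest BPA library was below the lowest untreated one. Psmb1 missed the threshold without untreated replicate 1 or 3 (edgeR adjusted p = 0.0551 for each). Psmb2 missed it whichever library other than BPA replicate 2 was left out (0.153 and 0.0668 without BPA replicates 1 and 3, 0.11, 0.132 and 0.087 without untreated replicates 1, 2 and 3), and so did Psmb4 (0.073 and 0.0652, 0.115, 0.117 and 0.0627, in the same order).

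Of the 3 catalytic subunits Psmb5 and Psmb7 passed and Psmb6 did not, and the differences between them were not tested. Psmb7, the trypsin-like subunit, was at 77.7, 69.3 and 84.3 CPM with BPA and at 142, 130.5 and 135 CPM untreated, and Psmb5, the chymotrypsin-like subunit, was at 289, 331 and 274 CPM with BPA and at 469, 423 and 430.0 CPM untreated. Both were lower in every BPA library, with log2 fold changes of -0.82 (SE 0.17, edgeR adjusted p = 0.00977) for Psmb7 and -0.56 (SE 0.14, edgeR adjusted p = 0.0246) for Psmb5. Psmb6, the caspase-like subunit, was at 283, 338 and 301 CPM with BPA and at 347, 321 and 342 CPM untreated. Its groups overlapped, and its log2 fold change was -0.13 (SE 0.14, edgeR adjusted p = 0.606).

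The Psmb5 call is the least stable of these: with the GC and length adjustment its log2 fold change was -0.05 (edgeR adjusted p = 0.802). It also missed the threshold whichever library other than BPA replicate 2 was left out (0.111 and 0.0963 without BPA replicates 1 and 3, 0.137, 0.0983 and 0.0571 without untreated replicates 1, 2 and 3). Psmb7 missed it without untreated replicate 1 (0.0729), and 11.8% of its exon bases overlap the gene Nek6, so reads there cannot be assigned without strand.

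The stretch around the start of Psmb5, whose transcript fell, is shown beside those of Psmb6, which did not pass, and of Psmb10, the gene that fell furthest. Each is the RefSeq sequence (GRCm38.p6) from 250 bases before to 50 bases after the annotated start, written 5′ to 3′ along the gene. The Psmb5 window is chr14:54617946-54618245 on the minus strand, the Psmb6 window chr11:70525107-70525406 on the plus strand and the Psmb10 window chr8:105938343-105938642 on the minus strand. Capitals mark matches to TGACNNNGC, the core of the antioxidant response element that Nfe2l1 and Nfe2l2 bind, on either strand (GCNNNGTCA on the other).
Psmb5: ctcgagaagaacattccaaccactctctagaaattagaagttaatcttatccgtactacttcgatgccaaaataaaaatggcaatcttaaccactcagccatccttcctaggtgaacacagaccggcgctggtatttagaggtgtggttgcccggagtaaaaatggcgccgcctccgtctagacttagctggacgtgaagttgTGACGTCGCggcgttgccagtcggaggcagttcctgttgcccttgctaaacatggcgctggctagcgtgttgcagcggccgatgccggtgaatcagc
Psmb6: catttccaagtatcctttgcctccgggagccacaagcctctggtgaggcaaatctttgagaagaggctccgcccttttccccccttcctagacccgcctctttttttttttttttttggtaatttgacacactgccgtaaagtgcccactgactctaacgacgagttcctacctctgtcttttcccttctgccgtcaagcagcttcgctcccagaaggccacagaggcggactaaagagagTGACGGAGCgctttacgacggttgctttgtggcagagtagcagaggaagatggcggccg
Psmb10: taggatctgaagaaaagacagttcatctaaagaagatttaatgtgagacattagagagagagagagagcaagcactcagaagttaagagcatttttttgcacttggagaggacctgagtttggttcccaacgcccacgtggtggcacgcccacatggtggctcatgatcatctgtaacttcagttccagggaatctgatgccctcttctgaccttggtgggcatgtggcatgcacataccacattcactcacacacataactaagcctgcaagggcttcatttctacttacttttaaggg

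Psmb5 and Psmb6 each have 1 match, at 47 and 9 bases before the start, and the letters are not in the Psmb10 window. Across the module 42 of 50 genes were in the promoter table and 6 of them (14.3%) held the element. It was in 14.0% of all 27025 genes there and in 17.1% of the 9933 that were tested for expression. Besides Psmb5 and Psmb6 they were Psmc6, Psmd9, Psmd12 and Psme4, so 1 of the 9 matched genes that fell held it. The CCAAT box (CCAAT or ATTGG) was in 35.7% of members, 41.1% of all genes and 43.2% of tested genes. An interferon response element (GAANNGAAA or TTTCNNTTC) was in 11.9% of members, 8.68% of all genes and 6.79% of tested genes. No match of 1 motif overlapped a match of another in the members' windows. These shares describe letters in a short window and not binding.

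Among the immunoproteasome genes, Psmb10 had the largest decline of all 47 tested members. Psmb10 (chr8:105935728-105938392), which replaces Psmb7, was at 50.7, 62.8 and 42.6 CPM with BPA and at 168, 160.3 and 157 CPM untreated. Even the highest BPA library was under 64 CPM, and the log2 fold change was -1.63 (SE 0.19, edgeR adjusted p = 2.8e-04), which passed without each library in turn. Psmb9, which replaces Psmb6, was at 1.96, 4.96 and 4.24 CPM with BPA and at 5.15, 10.1 and 5.08 CPM untreated, a log2 fold change of -0.86 that did not pass (SE 0.57, edgeR adjusted p = 0.385). Psmb8, which replaces Psmb5, had 0, 19 and 0 counts with BPA and 5, 30 and 1 counts untreated. It was not tested. In BPA replicates 1 and 3 the limit that a count of 0 allows is 3 counts, or 0.211 and 0.135 CPM. These 2 limits use raw library totals, without the scaling factors of the other levels, and cover counting error alone.

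Psmb10 was therefore the only immunoproteasome gene of the 3 that was plentiful, in both groups. Per length its level was 41.0 ± 8 CPM per kilobase with BPA and 127 ± 4.29 CPM per kilobase untreated (SD, n = 3). Relative to Psmb7 per length it stood at 1.83, 2.54 and 1.42 times with BPA and at 3.32, 3.44 and 3.26 times untreated. The order of these 2 levels rests on the lengths taken. With the longest annotated transcripts (1311 bases for Psmb10 and 2849 for Psmb7), a choice made after seeing the data, the ratios were 1.42, 1.97 and 1.10 with BPA and 2.57, 2.67 and 2.53 untreated. In CPM alone they were 0.653, 0.906 and 0.505 with BPA and 1.18, 1.23 and 1.16 untreated, so the order turned in the BPA libraries. The ratio was lower in every BPA library under each choice of length. The difference of the mean log2 ratios was -0.83 under each, and between -1.05 and -0.63 with 1 library left out. The ratio is a description, since both genes are members that fell. The immune cell markers, with Cd68 and Lyz2 above their low counts, were also lower with BPA in sum (32.6 to 43.7 CPM, against 56.5 to 61.0 CPM untreated), and their part in the Psmb10 values was not tested.

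The other pairs stood the opposite way round. Psmb9 was 0.343, 0.722 and 0.694% of Psmb6 per length with BPA and 0.732, 1.56 and 0.732% untreated. Psmb9 shares 5.79% of its exon bases with Tap1. Psmb8 was at most 0.0643% of Psmb5 with BPA and at most 0.126% untreated. Psme2, also tied to interferon, is described with the activators.

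**Figure D2:**
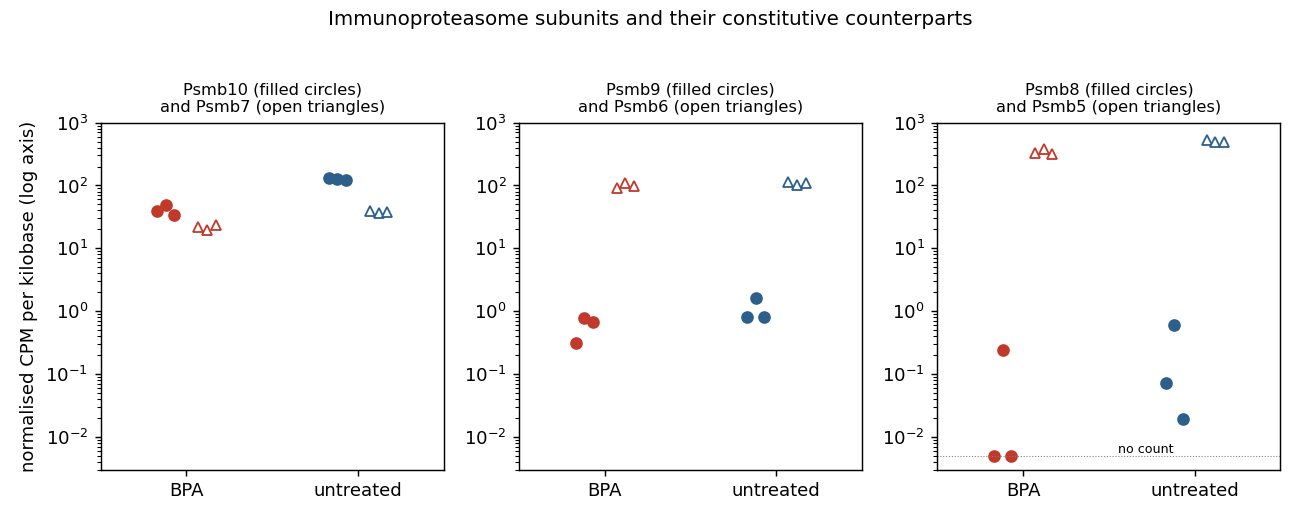
Normalised CPM per kilobase on a log axis for each immunoproteasome gene (filled circles) and the constitutive gene it replaces (open triangles), 3 BPA libraries on the left and 3 untreated libraries on the right of each panel. With the lengths behind the deposited FPKM, Psmb10 lies above Psmb7 in all 6 libraries, by 1.42 to 2.54 times with BPA and 3.26 to 3.44 times untreated, though in CPM alone it lies below Psmb7 in the BPA libraries, while Psmb9 and Psmb8 lie far below their counterparts. The 2 points on the dotted line stand for BPA libraries with 0 counts of Psmb8.

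The cap's base is a ring of ATPases that unfold substrates, and 1 of its 6 genes fell. Psmc5 was at 249, 269 and 245 CPM with BPA and at 360.1, 396 and 359.9 CPM untreated, so the groups did not overlap. Its log2 fold change was -0.55 (SE 0.14, edgeR adjusted p = 0.0244), and -0.34 (0.0334) with the GC and length adjustment. It missed the threshold whichever library other than BPA replicate 2 was left out (0.109 and 0.0869 without BPA replicates 1 and 3, 0.104, 0.14 and 0.0553 without untreated replicates 1, 2 and 3). Psmc3, the most abundant ATPase gene, was at 734, 866 and 774 CPM with BPA and at 969, 916 and 940.1 CPM untreated. It was lower in every BPA library with a log2 fold change of -0.25 (edgeR adjusted p = 0.233), and passed without BPA replicate 2 (-0.32, 0.0167).

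Psmc6, another ATPase of the ring, had a higher mean with BPA without passing. It was at 75.0, 13.1 and 48.6 CPM with BPA and at 19.2, 15.4 and 14.9 CPM untreated. BPA replicates 1 and 3 were above all untreated libraries and BPA replicate 2 below them. The log2 fold change was 1.46 (SE 0.47, edgeR adjusted p = 0.0689), and 1.90 (3.2e-04) without BPA replicate 2. Psmc6 also passed as higher in DESeq2 (adjusted p = 0.00958), in edgeR with no low-count filter (3.4e-04) and with the GC and length adjustment (0.00646). It had the lowest untreated level per length of the 6 ATPase genes. Psmc1 had a log2 fold change of -0.57 (edgeR adjusted p = 0.0573), lower in every BPA library, and passed without BPA replicate 2 or 3 (0.0399 and 0.0282) and in DESeq2 (0.0121). Psmc2 and Psmc4 had 0.08 and -0.11 (0.809 and 0.674).

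Of the 11 non-ATPase cap genes, which bind ubiquitin, release it from substrates or hold the lid together, Psmd13 fell. Psmd13, a lid subunit (chr7:140881968-140898643), was at 490.2, 521 and 379.8 CPM with BPA and at 964, 1038 and 1004 CPM untreated. Every BPA library was far below the untreated ones. The log2 fold change of -1.11 (SE 0.15, edgeR adjusted p = 6.4e-04) passed without each library in turn. Psmd13 shares 10.1% of its exon bases with Sirt3, whose counts summed over the libraries were 4.54% of those of Psmd13.

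The other 10 non-ATPase genes ranged from -0.58 to 0.53 on the log2 scale. Psmd7, also of the lid, was at 87.3, 118 and 114 CPM with BPA and at 146, 159 and 172 CPM untreated, a log2 fold change of -0.58 just short of the threshold (edgeR adjusted p = 0.0521, and 0.0089 without BPA replicate 2; DESeq2 adjusted p = 0.00905). Psmd4, a ubiquitin receptor, Psmd2, a scaffold of the base, and Psmd3 had log2 fold changes of -0.13, -0.08 and -0.03, each with overlapping groups (edgeR adjusted p = 0.618, 0.734 and 0.918). Psmd11, a lid subunit, and Psmd14, the lid's deubiquitinase, had 0.45 and 0.53 (0.148 and 0.31), and without BPA replicate 2 both passed as higher (0.58 and 0.77; 0.0103 and 0.0454). The cap chaperones Psmd5, Psmd9 and Psmd10, which help assemble the base, did not pass, at -0.03, -0.34 and 0.67 (0.935, 0.242 and 0.391), although Psmd5 and Psmd9 were lower with the GC and length adjustment (0.0369 and 0.0415).

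**Figure D3:**
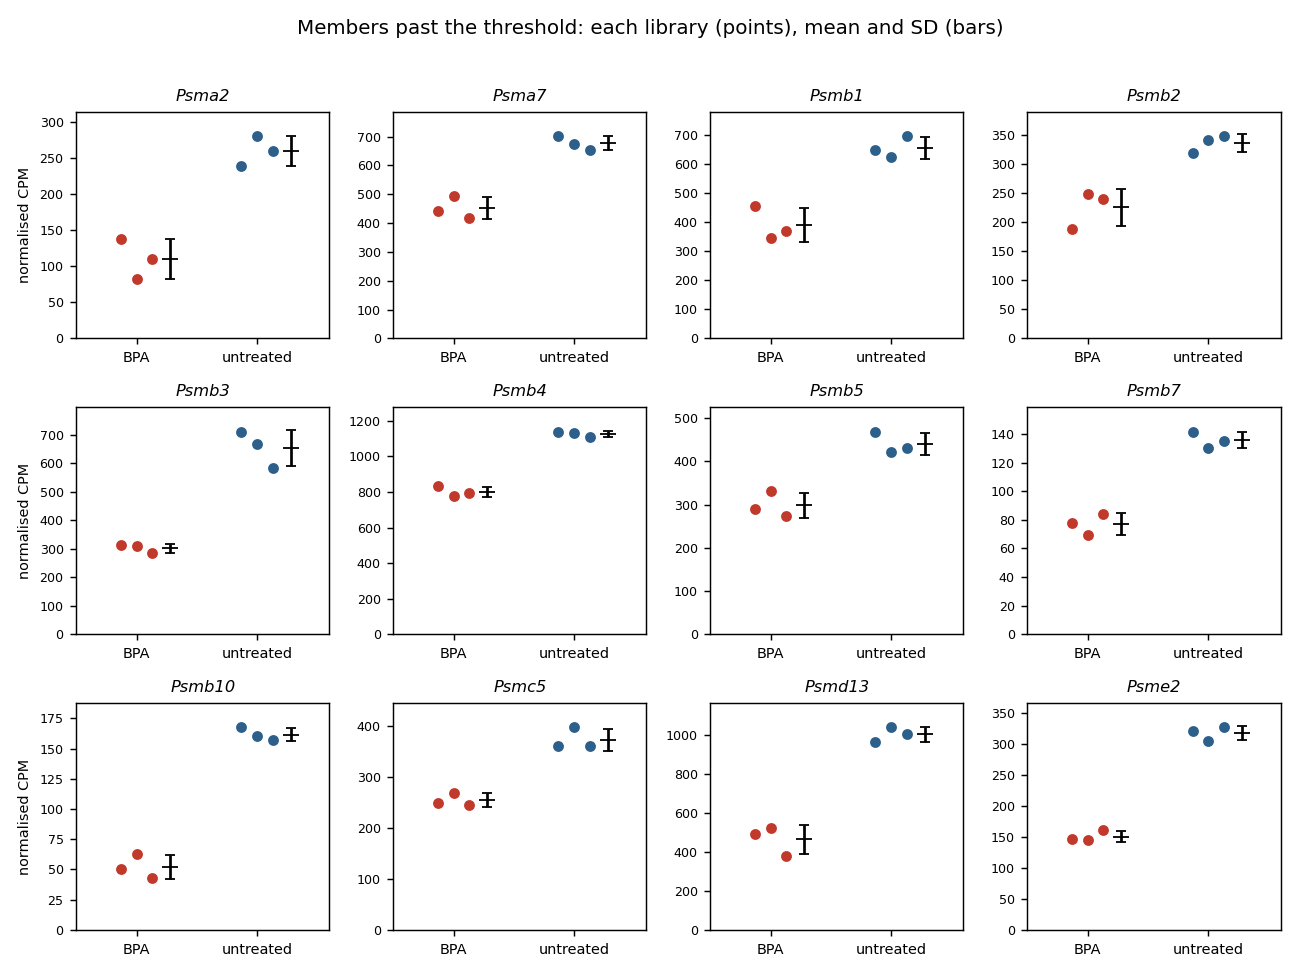
Normalised CPM in each of 3 BPA libraries and 3 untreated libraries for the 12 genes that fell, each panel on its own linear axis from 0, with bars for mean and SD. In every panel the highest BPA library lies below the lowest untreated library, for example 62.8 against 157 CPM for Psmb10 and 312 against 585 CPM for Psmb3.

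Activators open the core without the cap. Psme2, a subunit of the interferon-inducible activator PA28 (chr14:55587441-55591113), was at 146.5, 144 and 161 CPM with BPA and at 322, 305 and 327 CPM untreated. The 3 libraries of each group lay close together and far from the other group, with a log2 fold change of -1.08 (SE 0.14, edgeR adjusted p = 6.4e-04) that passed without each library in turn. Its partner Psme1 was at 184, 256.5 and 216 CPM with BPA and at 268, 289 and 266 CPM untreated. Psme1 was lower in every BPA library by a log2 fold change of -0.33 that did not pass (SE 0.16, edgeR adjusted p = 0.221), and passed without BPA replicate 2 (-0.45, 0.0146). Per length, Psme2 stood at 42.8 ± 2.50 CPM per kilobase with BPA and 90.4 ± 3.25 CPM per kilobase untreated, and Psme1 at 36.8 ± 6.11 and 46.1 ± 2.15 CPM per kilobase in the same order (SD, n = 3).

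Psme3, which forms a nuclear activator on its own, had the highest level per length of this class by the lengths behind the deposited FPKM. That order rests on a length of 3518 bases for Psme2, whose longest annotated transcript has 962. Psme3 was at 406, 414 and 405 CPM with BPA and at 378, 359 and 402 CPM untreated, a log2 fold change of 0.10, close to the median of all genes (edgeR adjusted p = 0.676). Psme4, an activator with a role in spermatogenesis in mice, was at 15.7, 5.30 and 12.3 CPM with BPA and at 6.52, 4.63 and 16.1 CPM untreated (0.29, edgeR adjusted p = 0.792). Psme2b, a near copy of Psme2, had 6 counts or fewer in each library, and its counts over all libraries were 0.0899% of those of Psme2. The inhibitor Psmf1 and the core chaperones Psmg1 to Psmg4, which help assemble the alpha ring, had log2 fold changes of -0.68 to -0.06 and none passed (edgeR adjusted p = 0.223 to 0.96). Psmc3ip, the meiotic factor, had -0.77 (0.399) and shares 21.2% of its exon bases with Mlx.

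BPA replicate 2 deviated from BPA replicates 1 and 3 with the GC content of the gene, in the module as in the whole table. Its deviation on the log2 scale and the GC content of the longest transcript had r = 0.70 over the 47 tested members and 0.628 over 13273 genes, as a description across genes that share the same libraries. In 7 members it was below 0.5 of the geometric mean of the other 2 BPA libraries: Psmc6, Psma3, Psma4, Psme4, Psmc3ip, Psma8 and Psmd1, with a median GC content of 43.9% against 50.6% in the other 40. None of the 12 genes that fell is among them, and all 12 passed without BPA replicate 2. In that fit 18 of 47 tested members were lower and 4 were higher (Psma4, Psmc6, Psmd11 and Psmd14). Over all 13708 genes tested in it, 1600 were lower and 1207 higher.

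Fold changes and GC content were also related. Across members r was -0.50, and across all tested genes with a GC value -0.196. The 12 members under 45% GC had a median log2 fold change of 0.37, near the 0.39 of all such genes, with 2 lower. The 35 members at 45% or above had a median of -0.34, against 0.02 for all such genes, with 10 lower. Over all tested genes of any GC content 6.28% were lower. The share within each GC range was not computed, so these 2 counts have no matched background. With the GC and length adjustment 16 of 47 tested members were lower, among them 11 of the 12 and not Psmb5. Over all 13273 genes tested with that adjustment, 1233 were lower and 903 higher.

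**Figure D4:**
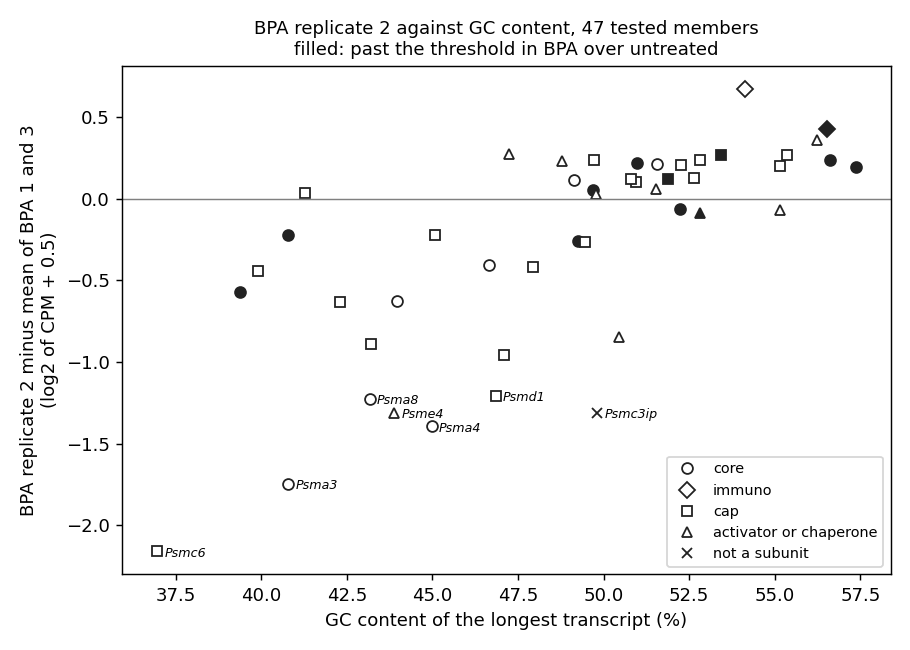
Deviation of BPA replicate 2 from the mean of BPA replicates 1 and 3, in log2 of CPM plus a constant, against GC content of the longest transcript for the 47 tested members, with symbols for role and filled symbols for the 12 genes that fell. The 7 named members lie more than 1 log2 unit below 0, with Psmc6 lowest, and none of the filled symbols is among them.

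Genes that act around the proteasome were read in separate lists, in which 3 of 52 tested genes rose (5.77%) and 5 fell (9.62%), near the 4.37% higher and 6.28% lower over all tested genes. Among 16 further subunits, assembly factors and bound proteins, Pomp and Shfm1 fell and Rad23b rose. Pomp, the maturation factor that helps complete the core, was at 27.9, 27.5 and 48.4 CPM with BPA and at 100.4, 88.1 and 85.9 CPM untreated. That is a log2 fold change of -1.40 (SE 0.25, edgeR adjusted p = 0.00429), and it passed without each library in turn. Shfm1, the smallest lid subunit, was at 7.27, 9.12 and 7.63 CPM with BPA and at 19.4, 14.9 and 22.4 CPM untreated (-1.24, SE 0.34, edgeR adjusted p = 0.0354). It missed the threshold whichever library other than BPA replicate 2 was left out (0.134 and 0.117 without BPA replicates 1 and 3, 0.132, 0.0612 and 0.124 without untreated replicates 1, 2 and 3). Rad23b, a shuttle that carries tagged proteins to the cap, was at 272, 307 and 393 CPM with BPA and at 197, 182 and 212 CPM untreated (0.72, SE 0.17, edgeR adjusted p = 0.0181), and missed it without BPA replicate 3 or untreated replicate 1 or 2 (0.0776, 0.0972 and 0.104).

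Among 13 genes that control proteasome transcription, Nfe2l1 rose and none fell, beside 4.37% higher and 6.28% lower over all tested genes. Nfe2l1 was at 309, 442 and 392.4 CPM with BPA and at 200.3, 203 and 214 CPM untreated. All 3 BPA libraries were above all untreated ones, with a log2 fold change of 0.89 (SE 0.16, edgeR adjusted p = 0.00457) that passed without each library in turn. Nfe2l2 (NRF2), the oxidative stress factor that binds the same element, was at 45.4, 40.9 and 51.8 CPM with BPA and at 67.2, 61.1 and 69.7 CPM untreated. It was lower in every BPA library without passing (-0.52, SE 0.20, edgeR adjusted p = 0.122), and passed as lower with the GC and length adjustment (-0.74, 0.00687). These are transcript levels, and NRF1 and NRF2 are regulated largely as proteins.

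Of the ubiquitin and ubiquitin-activating genes listed, the polyubiquitin gene Ubb fell. Ubb was at 3105, 3143 and 2722 CPM with BPA and at 5481, 5581 and 5352 CPM untreated (-0.87, SE 0.11, edgeR adjusted p = 4.7e-04), a decline that passed without each library in turn.

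In the list of 17 interferon control and antigen presentation genes, 2 fell (11.8%) and none rose. Over all tested genes 6.28% were lower and 4.37% higher, and the list was not tested as a set. Ifngr2, a chain of the interferon gamma receptor, was at 57.2, 51.0 and 49.7 CPM with BPA and at 78.5, 85.9 and 116.7 CPM untreated (-0.83, SE 0.20, edgeR adjusted p = 0.0234). Tapbp, which loads peptides onto class I molecules, was at 42.0, 91.4 and 50.4 CPM with BPA and at 122, 165.6 and 105.5 CPM untreated (-1.10, SE 0.28, edgeR adjusted p = 0.0284). In neither gene did the groups overlap. Ifngr2 missed the threshold whichever library other than BPA replicate 2 was left out (0.0672 and 0.0853 without BPA replicates 1 and 3, 0.0614, 0.0723 and 0.119 without untreated replicates 1, 2 and 3). Tapbp missed it without BPA replicate 1 or 3 or untreated replicate 1 or 2 (0.117, 0.103, 0.0985 and 0.143).

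Irf1 and Tap1 did not pass. Irf1, a factor that acts on immunoproteasome promoters, was at 238, 260.2 and 217 CPM with BPA and at 275, 224 and 249.5 CPM untreated (-0.07, edgeR adjusted p = 0.834). Tap1, the peptide transporter chain encoded beside Psmb9, was at 10.2, 19.1 and 12.7 CPM with BPA and at 15.3, 14.0 and 11.1 CPM untreated (0.05, edgeR adjusted p = 0.949). In both the groups overlapped.

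**Figure D5:**
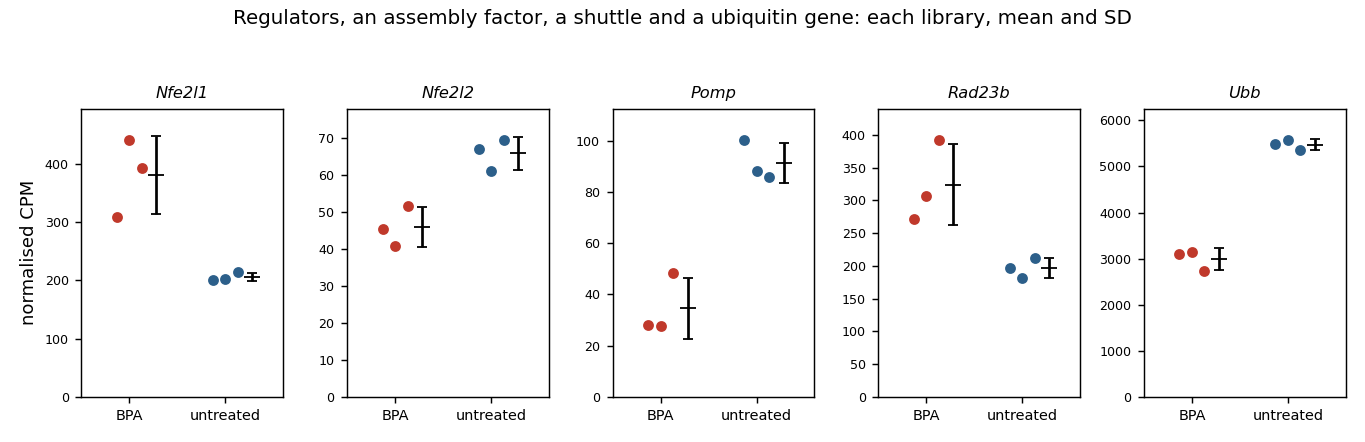
Normalised CPM in each of 3 BPA libraries and 3 untreated libraries, with mean and SD, for Nfe2l1, Nfe2l2, Pomp, Rad23b and Ubb, each on its own linear axis from 0. The BPA libraries lie above the untreated ones for Nfe2l1 and Rad23b and below them for Nfe2l2, Pomp and Ubb, without overlap in any panel.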

How the data were processed

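The authors deposited 1 table with raw gene counts, in whole numbers, and FPKM for every sample, and the submitters' processing notes name TopHat2 2.0.9, HTSeq and the mm10 build. Libraries were made from total RNA with a TruSeq RNA v2 kit, per the labels, and this kit does not mark strand. Neither the annotation nor the strand setting of the counting was given in the sources used. The deposited counts were tested as they stand in edgeR 4.0.16 (R 4.3.3; TMM scaling, filterByExpr, quasi-likelihood test, 3 BPA against 3 untreated samples, Benjamini-Hochberg adjustment over all 13287 tested genes, threshold 0.05). The script was tested on simulated data. A standard error is the log2 fold change divided by the square root of the F statistic. The deposited FPKM values served only to recover the authors' gene lengths, so levels per length are normalised CPM divided by those lengths, some of which exceed the longest annotated transcript. GC content, exon overlap and near copies came from GENCODE vM21, in which 98.6% of identifiers were found. The main fit did not pair samples by replicate number, and whether same-numbered samples belong together was not settled. Named genes are all members past the threshold, the 2 members of each class with the highest level per length, the immunoproteasome and germ cell members, and up to 4 called genes of each related list with Nfe2l1, Nfe2l2, Pomp, Irf1 and Tap1, with some list genes and 1 motif not reported here. Other members given with values were chosen after their values were seen. The members and lists were chosen with earlier results of these data known. Alternatives were other scalings, DESeq2 1.42.0, limma-voom (limma 3.58.1), other filters, a stricter threshold, a replicate block, a lowess correction for GC content and length, leaving out each library and, added after seeing the data, other lengths for the Psmb10 to Psmb7 ratio.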

Additional observations from a re-analysis of the deposited data

How the results depend on the processing

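The 12 lower members were called in all 9 fits that kept every library at the 0.05 threshold except Psmb5 with the GC and length adjustment, and no direction of a called member reversed. An FDR of 0.01 left 7 of them. Psmc6 was the 1 member higher in DESeq2, with no low-count filter and with the GC and length adjustment. With 1 library left out, 5 to 18 members were lower and 0 to 4 higher; over all genes 282 to 1600 were lower and 162 to 1207 higher, and in the related lists 2 to 8 lower and 1 to 8 higher. Over all genes 938 were higher in DESeq2, 927 with no filter and 903 with the GC and length adjustment, while an FDR of 0.01 gave 155 higher and 322 lower. In the related lists 7 were higher with library size scaling and 5 with no filter or the GC and length adjustment, which gave 8 lower; an FDR of 0.01 gave 1 higher and 2 lower. Scaling by library size moved the median of all genes to 0.21 from 0.10, and the members' median stood 0.36 to 0.37 log2 units below it under either scaling. The replicate numbers gave correlations of -0.02, 0.06 and 0.07 between same-numbered libraries, and a fit with a replicate block called 14 members lower (Psmc1 and Psmd7 added) and 0 higher. Deposited FPKM in place of lengths moved the members' median level to 42.5 with BPA, against 50.02 untreated, from 41.0 and 51.9. Lengths of the longest transcripts or none left the Psmb10 to Psmb7 difference at -0.83 (chosen after seeing the data). With 3 libraries a group, genes of few counts were not resolved.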
